A study of Mus musculus with 16 samples.

Results

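The 10 genes described here belong to families of enzymes that make, remodel or cleave phospholipids in liver: Chka, Pcyt1a, Cept1, Pemt, Lpcat3, Mboat7, Mboat1, Pla2g4a, Pla2g6 and Pla2g12b. They were chosen by name, but with earlier results of these data known, and all 10 were found among the 23420 genes of the count table. The 16 livers came from male C57BL/6J wild-type mice, 4 in each of 4 groups, and their RNA was sequenced. All mice ate a 45% high-fat diet. The FEN-HFD groups had 0.04% fenretinide, a synthetic retinoid, in that diet for 20 weeks or for 7 days, and the HFD groups ate it without fenretinide for the same times. No group on a low-fat diet was analysed here, and the labels give no ages. Mouse numbers were not shared between groups, so that the length of feeding, the age of the mice and any difference between cohorts cannot be told apart. The labels do not say whether mice shared cages or litters.

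Phosphatidylcholine is the main phospholipid of liver cell membranes, of the coat of very-low-density lipoprotein particles and of bile. Hepatocytes make it from choline by the CDP-choline (Kennedy) pathway, and, unlike most cells, also by methylating phosphatidylethanolamine. Phospholipases A2 then release fatty acids from finished phospholipids, and lysophospholipid acyltransferases put others in their place, which sets how unsaturated the membrane is.

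Library totals ran between 19218230 and 32546829 counts. The liver label was borne out by the 5 hepatocyte markers (Alb, Apoa1, Ttr, Cps1 and Cyp2e1), whose levels summed to between 49975 and 78373 CPM (reads of a gene relative to the normalised size of its library) in every library. There were 3 libraries that stood apart. In FEN-HFD 20-week mouse 29 the ribosomal precursor Rn45s took 53.1% of the counts, against 0.466% to 1.46% in the other 15 libraries, and markers of Kupffer cells, the resident macrophages of liver, summed to 947 CPM. In HFD 7-day mouse 143 the Kupffer cell markers summed to 909 CPM, against 332 to 577 CPM in the 13 libraries that did not stand apart. HFD 20-week mouse 45 held 7.36 CPM of the adipocyte markers Adipoq, Plin1 and Lep, against 0 to 0.162 CPM in those 13 libraries. Markers of other blood cells were also high in mouse 29. They summed to 15.3 CPM for B cells, against 1.18 to 3.82 CPM in the 13 libraries, and to 12.5 CPM for neutrophils, against 0.705 to 3.19 CPM. They summed to 223 CPM for monocytes and other macrophages, against 65.6 to 130.9 CPM, and to 7.70 CPM for T or NK cells, against 1.13 to 4.21 CPM. In mouse 143 the neutrophil markers (5.19 CPM) and the T or NK cell markers (6.14 CPM) were high as well. Values without a mouse are given beside the results that it moved most.

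The members covered a wide range of levels. Per kilobase of annotated exon, Pemt had the highest median over the 16 libraries, 84.8 CPM per kilobase, and was above Pla2g12b in 16 of 16 libraries with no overlap of their ranges. Pla2g12b (36.8), Lpcat3 (26.7), Cept1 (23.1), Pcyt1a (15.7) and Pla2g6 (10.1 CPM per kilobase) followed. Lpcat3 was above Cept1 in 11 of 16 libraries, so that the order of this pair was not clear of the spread between mice. Mboat7 (1.93), Chka (0.966), Pla2g4a (0.671) and Mboat1 (0.0767 CPM per kilobase) were the 4 lowest, and Chka was above Pla2g4a in 14 of 16 libraries. Every other neighbouring pair kept its order in all 16 libraries.

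Within the CDP-choline pathway, Chka encodes choline kinase alpha, which phosphorylates choline on entry, Pcyt1a encodes the enzyme that makes CDP-choline and limits the rate of the pathway, and Cept1 encodes a transferase of the last step. In mean CPM over 4 mice (± SD), Chka had 10.97 ± 1.41 in FEN-HFD and 15.3 ± 4.57 in HFD at 20 weeks, and 11.3 ± 0.668 in FEN-HFD and 13.0 ± 2.25 in HFD at 7 days. Pcyt1a had 115.0 ± 9.72 in FEN-HFD and 142.6 ± 9.05 in HFD at 20 weeks, and 108.4 ± 12.3 in FEN-HFD and 106.8 ± 9.99 in HFD at 7 days. Every HFD 20-week liver was above all livers of the other 3 groups. Cept1 had 72.5 ± 14.5 in FEN-HFD and 85.0 ± 7.80 in HFD at 20 weeks, and 72.7 ± 7.85 in FEN-HFD and 69.8 ± 14.7 in HFD at 7 days.

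Pemt encodes the methyltransferase that converts phosphatidylethanolamine to phosphatidylcholine, a reaction found almost wholly in hepatocytes. It averaged 168.3 ± 2.56 CPM in FEN-HFD and 217.1 ± 19.8 CPM in HFD livers at 20 weeks, and 163.6 ± 19.3 CPM in FEN-HFD and 204.3 ± 34.6 CPM in HFD livers at 7 days. Its mean was lower with fenretinide at both times.

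Lpcat3 and Mboat7 encode acyltransferases that load arachidonate and other polyunsaturated acids onto lysophosphatidylcholine and lysophosphatidylinositol, and Mboat1 encodes a related enzyme that acts on lysophosphatidylethanolamine and lysophosphatidylserine. Lpcat3 averaged 86.0 ± 7.19 CPM in FEN-HFD and 102.0 ± 11.5 CPM in HFD at 20 weeks, and 78.3 ± 7.61 CPM in FEN-HFD and 83.8 ± 19.2 CPM in HFD at 7 days. Mboat7 averaged 16.9 ± 2.24 CPM in FEN-HFD and 18.8 ± 0.433 CPM in HFD at 20 weeks, and 15.0 ± 1.69 CPM in FEN-HFD and 15.9 ± 1.21 CPM in HFD at 7 days. Mboat1 was hardly detected. It had 2 to 10 counts in each of the 13 libraries that did not stand apart and 3 counts in FEN-HFD mouse 29, but 23 counts in HFD 20-week mouse 45 and 67 counts in HFD 7-day mouse 143. It did not pass the filter on low counts in any comparison, so that 9 of the 10 members were tested.

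Among the phospholipases, Pla2g4a encodes the cytosolic, calcium-dependent enzyme that frees arachidonate, Pla2g6 a calcium-independent enzyme of phospholipid turnover, and Pla2g12b a secreted family member without catalytic activity that is known in mouse for its part in hepatic lipoprotein secretion. Pla2g4a averaged 5.85 ± 2.93 CPM in FEN-HFD and 3.02 ± 0.312 CPM in HFD at 20 weeks, and 4.94 ± 0.868 CPM in FEN-HFD and 5.49 ± 3.43 CPM in HFD at 7 days. Pla2g6 averaged 56.3 ± 5.82 CPM in FEN-HFD and 67.4 ± 8.49 CPM in HFD at 20 weeks, and 46.0 ± 13.8 CPM in FEN-HFD and 36.7 ± 9.16 CPM in HFD at 7 days. Pla2g12b was the steadiest member, with group means of 42.4 ± 5.11 CPM in FEN-HFD and 43.9 ± 4.09 CPM in HFD at 20 weeks, and 44.0 ± 3.73 CPM in FEN-HFD and 43.7 ± 3.40 CPM in HFD at 7 days.

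**Figure D1:**
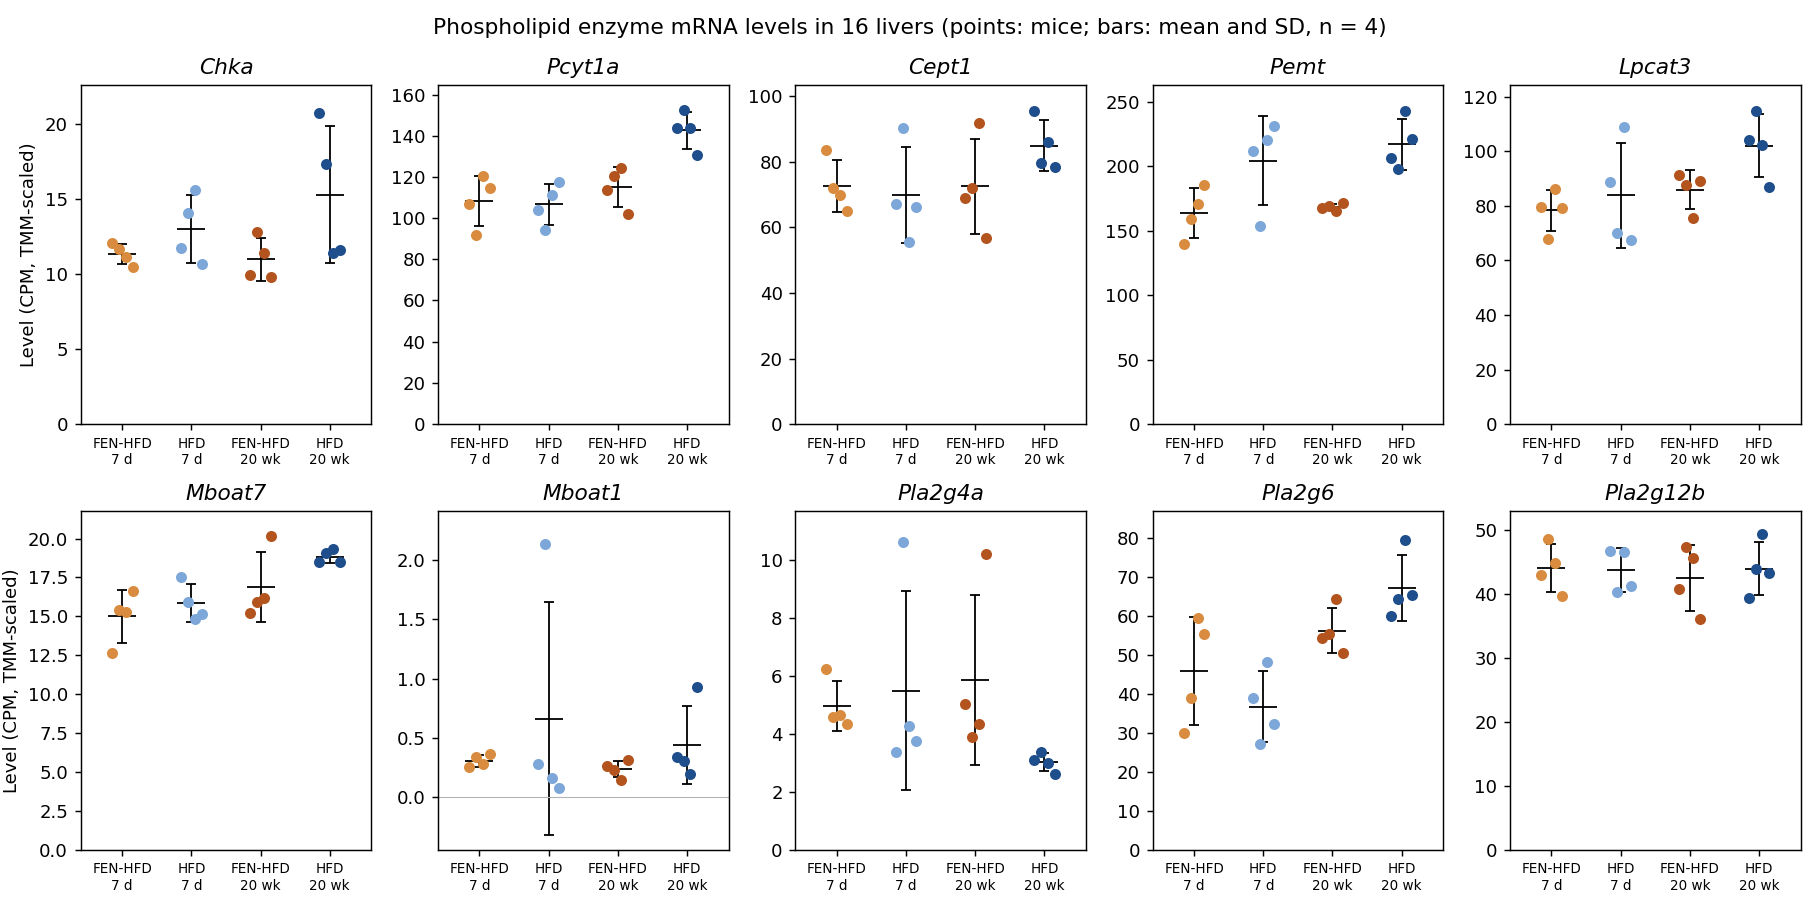
Level of each of the 10 members in CPM (y axis, starting at or below 0) in the FEN-HFD and HFD livers at 7 days and at 20 weeks (x axis). Points are mice and black bars the mean and SD of 4 mice. Chka, Pcyt1a, Cept1, Pemt, Lpcat3, Mboat7 and Pla2g6 have their highest group mean in the HFD 20-week livers, and for Pcyt1a alone all these livers are above the others. The single high points of Pla2g4a are FEN-HFD 20-week mouse 29 (10.2 CPM) and HFD 7-day mouse 143 (10.6 CPM).

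In the GRCm38 annotation Chka lies on chromosome 19 from 3851585 to 3894369 and Cept1 on chromosome 3 from 106502260 to 106547802. Lpcat3 lies on chromosome 6 from 124663094 to 124704716, Mboat7 on chromosome 7 from 3677789 to 3693189 and Mboat1 on chromosome 13 from 30136451 to 30246694. Pla2g4a lies on chromosome 1 from 149829618 to 149961290 and Pla2g12b on chromosome 10 from 59403420 to 59421976. Pemt is on chromosome 11 from 59970614 to 60046561, Pcyt1a on chromosome 16 from 32430921 to 32475065 and Pla2g6 on chromosome 15 from 79286228 to 79328385. Exons of 5 of these genes overlap those of genes on the other strand. The shared exon length is 771 bases for Cept1 with Dennd2d, 334 bases for Lpcat3 with Emg1, 277 bases for Mboat7 with Tsen34, 567 bases for Pcyt1a with Slc51a and 165 bases for Chka with an antisense RNA. Counts of these 5 members could therefore hold reads of the partner gene if strand was not used, which the sources used here do not give.

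The promoters of Pemt, Pcyt1a and Pla2g6 are printed because Pemt had the smallest p of the members between the diets at 20 weeks and Pcyt1a and Pla2g6 were the 2 members called with time on HFD. Each is the RefSeq window of 250 bases before to 50 bases after an annotated start, in the GRCm38.p6 build of the mouse genome. Pemt lies on chromosome 11 on the minus strand and the window is chr11:60040139-60040438, around a start inside the interval given above. Pcyt1a lies on chromosome 16 on the plus strand and the window is chr16:32430671-32430970. Pla2g6 lies on chromosome 15 on the minus strand and the window is chr15:79328322-79328621. All run 5′ to 3′ along the gene. Capitals mark, on either strand, the letters of 4 motifs. They are a sterol response element (TCACNCCAC), the site type of sterol regulatory element-binding proteins, and a GC box, spelled GGGCGG, where factors of the Sp family bind. The others are a CCAAT box, whose letters are its name, and a nuclear receptor half-site, spelled AGGTCA.
Pemt: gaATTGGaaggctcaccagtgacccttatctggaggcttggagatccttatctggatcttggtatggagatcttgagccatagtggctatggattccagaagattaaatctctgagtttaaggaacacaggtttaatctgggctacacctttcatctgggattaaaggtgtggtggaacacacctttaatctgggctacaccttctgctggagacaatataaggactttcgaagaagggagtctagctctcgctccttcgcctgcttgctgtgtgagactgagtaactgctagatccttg
Pcyt1a: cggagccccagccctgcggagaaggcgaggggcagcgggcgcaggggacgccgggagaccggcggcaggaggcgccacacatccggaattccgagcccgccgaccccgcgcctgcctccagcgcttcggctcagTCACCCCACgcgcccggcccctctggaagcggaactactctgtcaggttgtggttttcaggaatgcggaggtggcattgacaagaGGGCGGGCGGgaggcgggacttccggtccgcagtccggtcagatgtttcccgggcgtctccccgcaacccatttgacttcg
Pla2g6: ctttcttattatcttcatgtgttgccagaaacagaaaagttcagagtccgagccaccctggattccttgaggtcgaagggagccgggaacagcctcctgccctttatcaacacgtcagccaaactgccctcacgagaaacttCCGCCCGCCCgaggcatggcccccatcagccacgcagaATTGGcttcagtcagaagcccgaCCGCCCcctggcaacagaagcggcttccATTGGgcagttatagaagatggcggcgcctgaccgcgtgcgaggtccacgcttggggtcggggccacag
The Pcyt1a window held 1 sterol response element, 116 to 108 bases before the start, and 2 GC boxes that share 2 bases. The letters of the sterol response element occurred in 1.24% of 32851 RefSeq promoter windows of the same length, and those of a GC box in 35.7%. The Pla2g6 window held 3 GC boxes, of which 2 overlap, and 2 CCAAT boxes, and the Pemt window held 1 CCAAT box. A CCAAT box occurred in 37.4% of windows and a half-site in 16.3%. A TATA box (TATAAA, in 13.6% of windows) and direct repeats of the half-site with a spacing of 1, 2, 4 or 5 bases were searched as well and were not found in these 3 windows. Among the windows of the 10 members, all of which matched, a sterol response element was found for Pcyt1a alone. Pemt and Pcyt1a also had windows at other annotated starts, which are not printed. The other Pemt window held none of the motifs. For Pcyt1a, the window chr16:32430770-32431069 held the same sterol response element and GC boxes, and chr16:32430980-32431279 held 1 half-site alone. These are matches of letters and do not show that a factor binds there.

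The first comparison asked what fenretinide did to these genes over 20 weeks of high-fat feeding. Pemt, Pcyt1a, Chka, Lpcat3 and Pla2g6 had lower values in FEN-HFD livers and Pla2g4a higher ones, but none of the 9 members tested passed the threshold, an adjusted p under 0.05 over all genes by edgeR's quasi-likelihood test. Among all 13010 genes tested 1.86% passed it, 100 of them higher and 142 lower. Without adjustment, 6 of the 9 members had a p under 0.05, 1 higher and 5 lower, against 18.5% of all genes. DESeq2 called 3 members (Pla2g4a higher, Pemt and Pcyt1a lower), where it called 7.27% of genes, and limma-voom called 1 (Pemt lower), where it called 8.37%. The median log2 fold change of the 9 members was -0.25, and that of all genes tested was 0.01.

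Pemt had 167.6, 168.9, 165.3 and 171.4 CPM in the FEN-HFD mice, against 206.2, 197.8, 243.0 and 221.2 CPM in the HFD mice. Every FEN-HFD liver lay below every HFD liver, and the FEN-HFD livers were close together. The log2 fold change was -0.37 (SE 0.092, 95% interval -0.57 to -0.16), a level of 0.775 times that in HFD livers, with an adjusted p of 0.075 by edgeR. DESeq2 gave an adjusted p of 0.000943 and limma-voom 0.0209. Over all 16 alternatives its adjusted p lay between 0.000943 and 0.215, and without mouse 29 the log2 fold change was -0.37.

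Pcyt1a had 113.5, 120.4, 124.2 and 102.0 CPM in the FEN-HFD mice, against 143.7, 152.3, 144.0 and 130.4 CPM in the HFD mice. Again the groups did not overlap. Its log2 fold change was -0.31 (SE 0.093, 95% interval -0.52 to -0.10), with an adjusted p of 0.119 by edgeR, 0.0301 by DESeq2 and 0.0519 by limma-voom. Pemt, Pcyt1a and Pla2g4a were the 3 of 9 members whose groups did not overlap, as was the case for 12.8% of all genes.

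Chka had 9.92, 12.8, 11.4 and 9.78 CPM in the FEN-HFD mice, against 20.8, 17.3, 11.4 and 11.6 CPM in the HFD mice. The HFD livers were split, with mice 25 and 28 high and mice 33 and 45 within the range of the FEN-HFD livers. The log2 fold change was -0.47 (SE 0.20, adjusted p = 0.249 by edgeR), and was -0.29 without HFD mouse 25. Lpcat3 had 91.4, 87.7, 75.4 and 89.2 CPM in the FEN-HFD mice, against 104.0, 114.8, 102.5 and 86.9 CPM in the HFD mice, where mouse 45 lay inside the FEN-HFD range (log2 fold change -0.25, SE 0.11, adjusted p = 0.249 by edgeR). Pla2g6 had a log2 fold change of -0.26 (SE 0.11, adjusted p = 0.246 by edgeR), and was at 50.7 to 64.4 CPM in FEN-HFD livers and at 60.0 to 79.6 CPM in HFD livers, which overlapped. Without HFD mouse 33, the highest, it was -0.16 with an adjusted p of 0.407.

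Mboat7 and Cept1 were at log2 fold changes of -0.17 (SE 0.10) and -0.23 (SE 0.14), with adjusted p of 0.406 and 0.41 by edgeR. The Mboat7 value held a single FEN-HFD liver, that of mouse 29 at 20.2 CPM, above all 4 HFD livers (18.5 to 19.3 CPM), while the other 3 lay below them at 15.2 to 16.2 CPM. Without mouse 29 the log2 fold change of Mboat7 was -0.25 (adjusted p = 0.103 by edgeR). Cept1 was lowest in mouse 29 and highest in mouse 24 of the FEN-HFD livers, and its log2 fold change was -0.13 without mouse 29 (adjusted p = 0.551) and -0.36 without mouse 24 (adjusted p = 0.165). Pla2g12b was at -0.05 (SE 0.11), with a 95% interval of its fold from 0.822 to 1.14.

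Pla2g4a was the only tested member with a higher value in FEN-HFD livers at 20 weeks. It had 5.02, 3.88, 4.32 and 10.2 CPM in the FEN-HFD mice, against 3.09, 3.38, 2.98 and 2.63 CPM in the HFD mice. The groups did not overlap, with mouse 29 the highest of its group. The log2 fold change was 0.92 (SE 0.29, adjusted p = 0.14 by edgeR and 0.0423 by DESeq2). Without mouse 29 it was 0.55, with an adjusted p of 0.0936 by edgeR. These values rested on 65 to 134 counts per library.

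Cell type markers moved alongside. The 6 Kupffer cell markers summed to 464, 405, 434 and 947 CPM in the FEN-HFD 20-week mice, against 333, 332, 386 and 316 CPM in the HFD 20-week mice. All 6 had positive log2 fold changes, and Marco, a scavenger receptor of macrophages, was called higher (log2 fold change 2.26, adjusted p = 0.0357 by edgeR). The 5 hepatocyte markers summed to 49975 to 63025 CPM in FEN-HFD livers and to 66207 to 76427 CPM in HFD livers, and none of the 5 was called. Alb made up most of this sum, and Alb (-0.56) and Ttr (-0.47) had negative log2 fold changes. Those of Apoa1 (0.39), Cyp2e1 (0.29) and Cps1 (0.10) were positive. The stellate cell marker Lrat, which esterifies retinol, was also called higher (log2 fold change 0.75, adjusted p = 0.0357 by edgeR). The stellate cell list did not move with it, since 3 of its 6 markers had positive and 3 negative values, with a median of -0.03. No marker of monocytes, neutrophils, B cells, T or NK cells, cholangiocytes or sinusoidal endothelium was called. The part of these cell types in the values of Pla2g4a, Pemt and Pcyt1a was not tested. In whole liver, fewer cells of a type and less RNA per cell cannot be told apart.

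**Figure D2:**
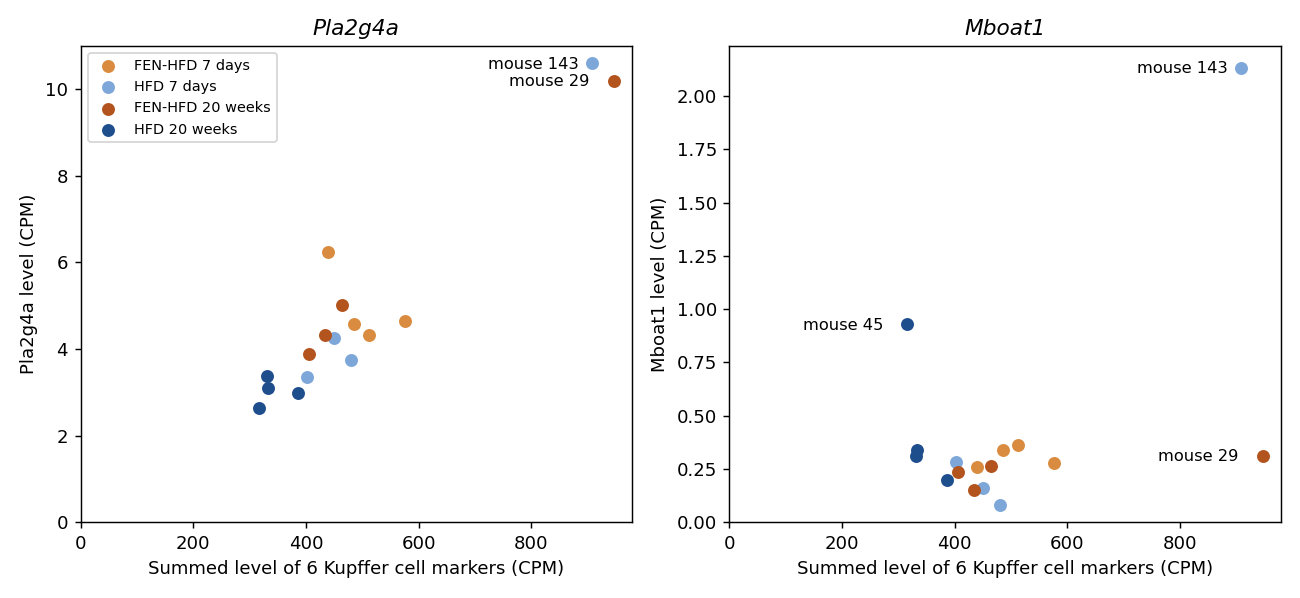
Levels of Pla2g4a (left) and Mboat1 (right) in CPM (y axes) against the summed level of the 6 Kupffer cell markers in CPM (x axes), with a point for each of the 16 mice. Mice 29 and 143 are high in both the marker sum and Pla2g4a, the HFD 20-week mice are low in both, and Mboat1 is high in mouse 143 but not in mouse 29. Neutrophil and T or NK cell markers were high in both mice too, and B cell and monocyte or other macrophage markers in mouse 29 only. These are not plotted.

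After 7 days of feeding, none of the 9 members passed the threshold between FEN-HFD and HFD livers by edgeR (0.0988% of 13157 genes did), by DESeq2 (0.538% of its genes) or by limma-voom (0.258%). None had groups that did not overlap, as 3.19% of all genes had. At an unadjusted p under 0.05 there was 1 member, Pemt, against 5.08% of all genes. Pemt had 139.8, 158.8, 170.5 and 185.4 CPM in the FEN-HFD mice, against 212.0, 153.6, 220.5 and 231.0 CPM in the HFD mice. The HFD liver of mouse 143 lay among the FEN-HFD livers, and the other 3 lay above them all. The log2 fold change was -0.32 (SE 0.14, 95% interval -0.62 to -0.01, adjusted p = 0.974 by edgeR), and without mouse 143 it was -0.43, with an adjusted p of 0.251. The 5 hepatocyte markers summed to 56622 to 65394 CPM in FEN-HFD livers and to 62563 (mouse 143) to 78373 CPM in HFD livers. None of these markers was called by edgeR, and 4 had negative log2 fold changes and 1 a positive one. Their part in the Pemt value was not tested.

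The other 8 members were at log2 fold changes between -0.20 (Chka) and 0.33 (Pla2g6) at 7 days, each with an interval that included 0. That of Pcyt1a was 0.03 (95% interval -0.21 to 0.26). Pla2g6 varied between mice, with 30.1, 39.1, 59.5 and 55.4 CPM in the FEN-HFD mice, against 39.0, 27.1, 48.4 and 32.4 CPM in the HFD mice, and the groups overlapped. Pla2g4a was at -0.15 (SE 0.35) with mouse 143 and at 0.39 without it.

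Whether fenretinide acted differently at 20 weeks from 7 days was tested as a difference of the 2 log2 fold changes in a fit of all 16 libraries. No member passed the threshold by edgeR, where 0.0299% of 13387 genes did, by DESeq2 (0.829%) or by limma-voom (0.545%). At an unadjusted p under 0.05 there were 2, against 8.68% of all genes. Pcyt1a had a difference of -0.33 (SE 0.14, 95% interval -0.63 to -0.03, adjusted p = 0.528 by edgeR). Pla2g4a had a difference of 1.06 (SE 0.49, 95% interval 0.02 to 2.10, adjusted p = 0.571 by edgeR), which was 0.08 without mice 29, 45 and 143. Pemt, lower in mean at both times, had a difference of -0.05 (95% interval -0.40 to 0.31).

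**Figure D3:**
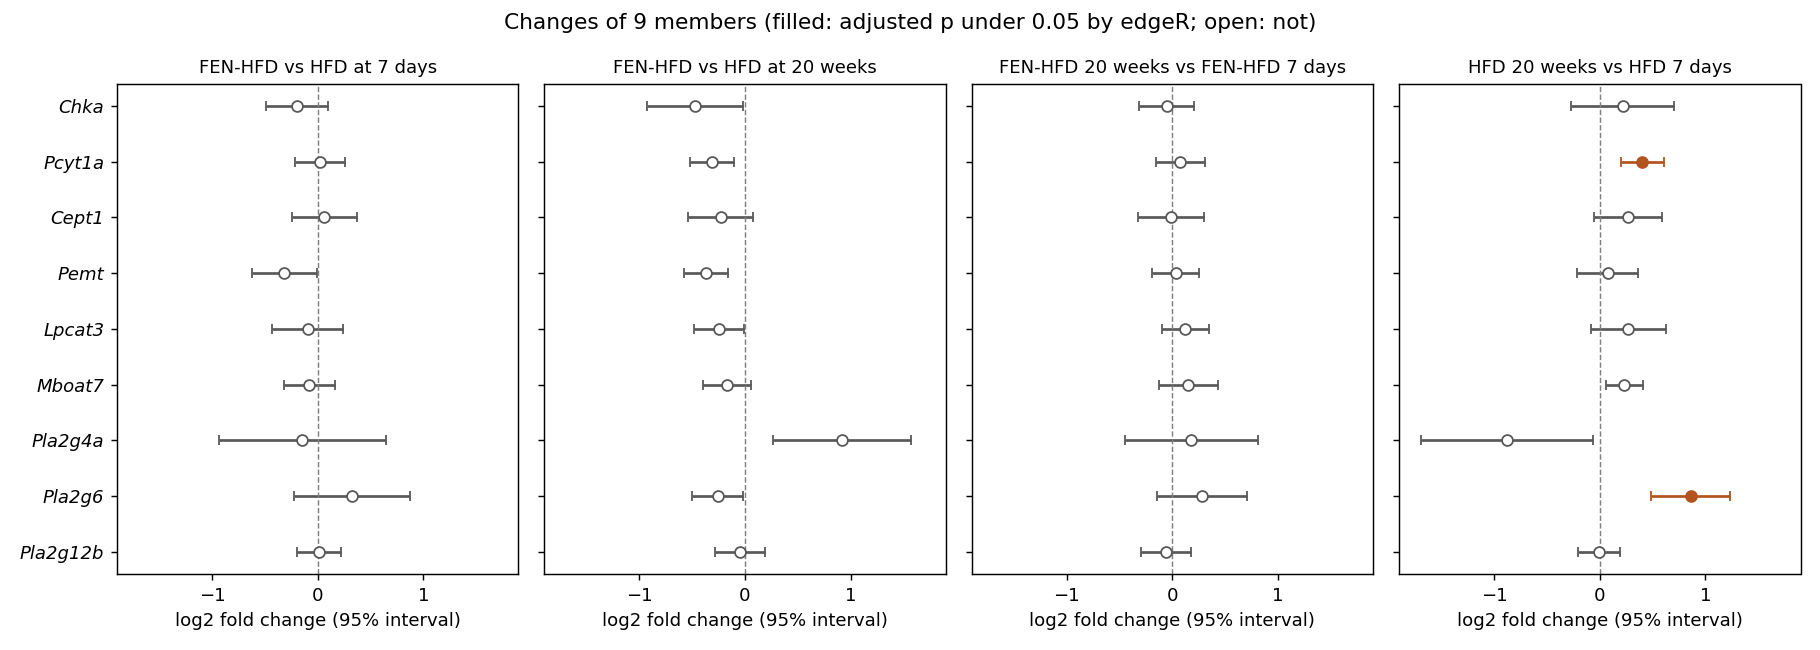
Log2 fold change (x axis) of the 9 tested members (y axis) between diets at 7 days and at 20 weeks, and between 20 weeks and 7 days within each diet. Circles are estimates and lines 95% intervals, and filled circles have an adjusted p under 0.05 by edgeR. Only Pcyt1a (0.40) and Pla2g6 (0.86), in HFD livers at 20 weeks against 7 days, are filled.

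By edgeR, members passed the threshold only between the HFD groups at 20 weeks and 7 days. Length of feeding, age and cohort cannot be told apart there. In HFD livers at 20 weeks, against HFD livers at 7 days, Pla2g6 rose 1.82-fold and Pcyt1a rose 1.32-fold, and none of the other 7 members was called. By edgeR 7.51% of 13255 genes were called, 634 higher and 362 lower. DESeq2 and limma-voom called the same 2 members, where they called 12.2% and 9.35% of genes. At an unadjusted p under 0.05 there were 4 members (Mboat7, Pcyt1a and Pla2g6 higher, Pla2g4a lower), against 25.5% of all genes. The groups did not overlap for 3 members, Mboat7, Pcyt1a and Pla2g6, and for 17.0% of all genes.

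Pla2g6 had 60.0, 64.3, 79.6 and 65.6 CPM in the HFD 20-week mice, against 39.0, 27.1, 48.4 and 32.4 CPM in the HFD 7-day mice. The lowest liver at 20 weeks was above the highest at 7 days. The log2 fold change was 0.86 (SE 0.17, 95% interval 0.48 to 1.24, adjusted p = 0.0165 by edgeR). It was called under all 16 alternatives, which included leaving out each mouse, with an adjusted p of 0.0465 at most.

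Pcyt1a had 143.7, 152.3, 144.0 and 130.4 CPM in the HFD 20-week mice, against 103.9, 94.4, 111.2 and 117.6 CPM in the HFD 7-day mice, with no overlap. The log2 fold change was 0.40 (SE 0.091, 95% interval 0.20 to 0.61, adjusted p = 0.0275 by edgeR). The call was lost when a single mouse was left out in 5 of 8 cases, although the log2 fold change stayed between 0.35 and 0.45. Adjusted p was 0.0773 without HFD 20-week mouse 25, 0.0705 without mouse 28 and 0.057 without mouse 33. It was 0.0852 without HFD 7-day mouse 142 and 0.0526 without mouse 144. Of the hepatocyte markers, Apoa1 (log2 fold change -0.83) and Cps1 (-1.25) were called lower at 20 weeks, and the 5 markers summed to 66207 to 76427 CPM at 20 weeks and to 62563 to 78373 CPM at 7 days. Gpnmb, a marker of lipid-laden macrophages, was called higher (4.57) and Klrb1c, of NK cells, lower (-1.60). Their part in the Pcyt1a and Pla2g6 values was not tested. The overlap with Slc51a, a bile acid transporter gene, given above applies to these Pcyt1a values.

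**Figure D4:**
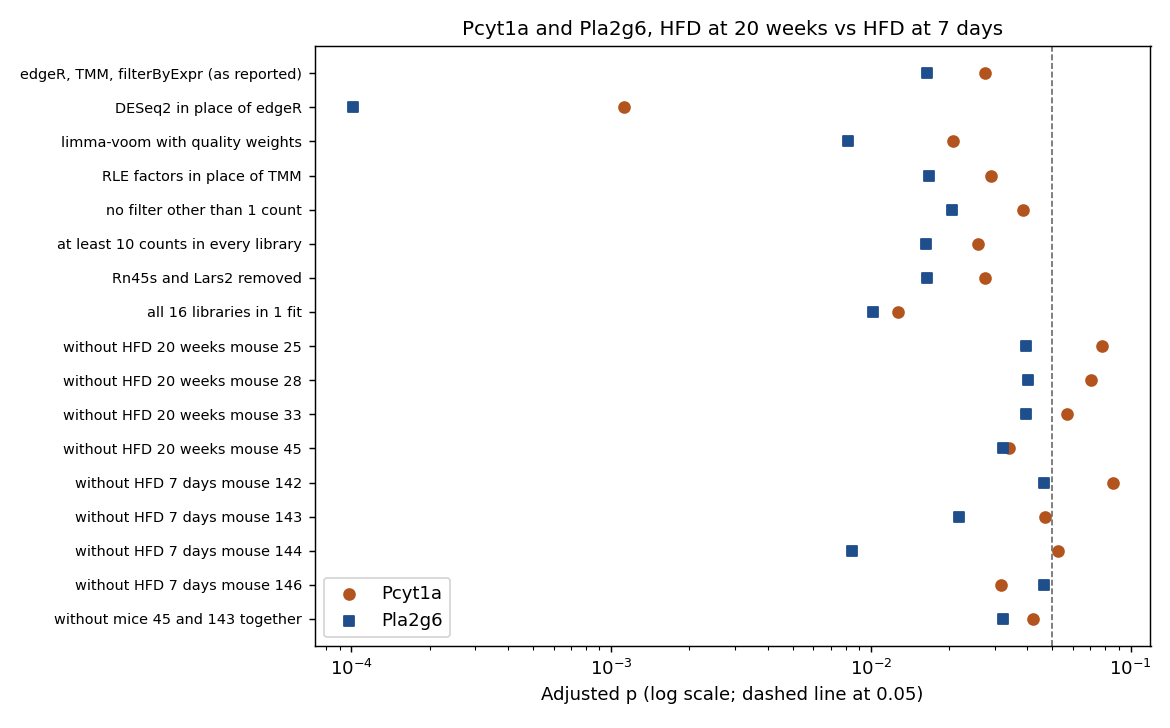
Adjusted p (x axis, log scale) of Pcyt1a (circles) and Pla2g6 (squares) in HFD livers at 20 weeks against 7 days, as reported and under 16 alternative settings (y axis), with a dashed line at 0.05. All squares lie left of the line, and 5 circles, each without a single mouse, lie right of it.

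Mboat7 had 18.5, 19.1, 19.3 and 18.5 CPM in the HFD 20-week mice, against 17.6, 15.9, 14.8 and 15.2 CPM in the HFD 7-day mice. The groups did not overlap, with a log2 fold change of 0.23 (SE 0.078) that did not pass the threshold (adjusted p = 0.104 by edgeR). Cept1 was at 0.27 (SE 0.14, adjusted p = 0.268 by edgeR). Mouse 143 had the highest Cept1 level of the HFD 7-day mice, 90.4 CPM against 55.6 to 67.1 CPM in the other 3, and without it the log2 fold change was 0.42 with an adjusted p of 0.0418. Without mouse 144, the lowest, it was 0.17 with an adjusted p of 0.471. Pla2g4a had 3.09, 3.38, 2.98 and 2.63 CPM in the HFD 20-week mice, against 3.35, 10.6, 4.26 and 3.74 CPM in the HFD 7-day mice. Its log2 fold change was -0.88 (SE 0.36, adjusted p = 0.171 by edgeR) with mouse 143 and -0.33 without it. The Kupffer cell markers summed to 316 to 386 CPM in the HFD 20-week mice and to 403 to 909 CPM in the HFD 7-day mice, with Clec4f (-0.71) and Vsig4 (-0.55) called lower by edgeR, and their part in the Pla2g4a value was not tested.

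In FEN-HFD livers the same interval of time went with no called member. None of the 9 passed by edgeR (1.18% of 12949 genes did), none had an unadjusted p under 0.05 (9.66% of genes did), none was called by DESeq2 (2.89%) or limma-voom (6.90%), and none had groups that did not overlap (6.55%). Pla2g6 was at a log2 fold change of 0.28 (SE 0.19, 95% interval -0.14 to 0.71), and Pcyt1a at 0.08 (SE 0.11, 95% interval -0.16 to 0.31). The difference between the diets in this change is the same quantity as the difference in fenretinide effect given above. For Pla2g6 it was -0.58 (SE 0.28, 95% interval -1.18 to 0.01, adjusted p = 0.589 by edgeR), so that a different course on the 2 diets was not shown for either gene.

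The other genes of the pathway were described from 8 lists holding 76 genes beside the members. In FEN-HFD against HFD livers at 20 weeks, 71 of the 76 were tested. By edgeR 1 was lower and none higher at an adjusted p under 0.05, where 1.86% of all genes were called. By DESeq2 9 were lower and 1 higher, where it called 7.27% of genes. By limma-voom 8 were lower and 1 higher, where it called 8.37%. Without adjustment, a p under 0.05 was reached by 20 of the 71, 16 lower and 4 higher, against 18.5% of all genes. Their median log2 fold change was -0.06, and that of all genes tested was 0.01. The gene called by edgeR was Pla2g12a, which encodes a secreted phospholipase A2. It averaged 9.11 ± 2.28 CPM in FEN-HFD and 16.2 ± 1.37 CPM in HFD livers (n = 4 each), a log2 fold change of -0.85 (SE 0.16, adjusted p = 0.0334 by edgeR). The call was lost without any single one of FEN-HFD mice 21, 22 and 24 or HFD mice 25, 28 and 33, with adjusted p of 0.0725 to 0.114.

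The lists other than that of the phospholipases held no gene called by edgeR at 20 weeks. For 5 of them, the median log2 fold changes were 0.06 for 10 genes of the methionine and choline cycle, -0.10 for 12 genes of phosphatidylserine, phosphatidylinositol and cardiolipin synthesis and 0.12 for 5 lysophospholipid acyltransferases. They were -0.09 for 9 genes of phospholipid transfer and export, and -0.15 for 7 genes of glycerophosphodiester and phospholipase D metabolism. Among these genes, DESeq2 and limma-voom both called Pltp (-0.87, adjusted p = 0.108 by edgeR, 0.0117 by DESeq2 and 0.0253 by limma-voom), Abcb4 (-0.59, adjusted p = 0.135 by edgeR, 0.0408 by DESeq2 and 0.044 by limma-voom) and Enpp6 (-1.02, adjusted p = 0.0747 by edgeR, 0.00826 by DESeq2 and 0.0195 by limma-voom). Cds2 was called by DESeq2 alone (-0.22, adjusted p = 0.0402).

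Of the 9 genes listed for the supply of phosphatidic acid and diacylglycerol, the precursors of all glycerophospholipids, none was called by edgeR at 20 weeks. DESeq2 and limma-voom both called 3 lower (Gpam, Agpat9 and Agpat3), where they called 7.27% and 8.37% of all genes. Of the 9, 7 had negative values, and their median log2 fold change was -0.49. Gpam, which encodes the mitochondrial acyltransferase that starts glycerolipid synthesis, was at -1.10 (SE 0.24, adjusted p = 0.0549 by edgeR, 0.000429 by DESeq2 and 0.0262 by limma-voom). Gpcpd1, which encodes a phosphodiesterase that breaks down glycerophosphocholine, was at 1.33 (SE 0.28, adjusted p = 0.0516 by edgeR, 9.44e-05 by DESeq2 and 0.0169 by limma-voom). Of the 6 tested genes of the CDP-choline and CDP-ethanolamine pathway that are not members, none was called by edgeR and the median was -0.17. Pcyt2, the ethanolamine counterpart of Pcyt1a, was at -0.43 (SE 0.10, adjusted p = 0.0607 by edgeR), and was called by DESeq2 (adjusted p = 9.86e-05) and limma-voom (0.0242). A further list of 9 genes held the liver X receptor genes Nr1h3 and Nr1h2 and targets of these receptors and their partners. Of the 9, Scd1, a stearoyl-CoA desaturase gene, was the 1 called, and it was lower (log2 fold change -1.50, SE 0.28, adjusted p = 0.0316 by edgeR). That call was lost without FEN-HFD mouse 21 or 24 or HFD mouse 25, 28 or 33, with adjusted p of 0.062 to 0.108.

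At 7 days none of the 71 tested pathway genes was called between the diets by edgeR, where 0.0988% of all genes were. DESeq2 and limma-voom each called 2, both higher (Chpt1 and Gpcpd1), where they called 0.538% and 0.258% of genes. By edgeR 6 were higher and 3 lower at an unadjusted p under 0.05, against 5.08% of all genes. Chpt1, which encodes the cholinephosphotransferase that completes the CDP-choline pathway beside Cept1, had the smallest p of the CDP-choline list. It averaged 282.2 ± 31.9 CPM in FEN-HFD and 178.2 ± 32.6 CPM in HFD livers, a log2 fold change of 0.67 (SE 0.14, adjusted p = 0.202 by edgeR). Pctp, a phosphatidylcholine transfer protein gene, was at 0.65 (SE 0.17, adjusted p = 0.408). Of the 9 genes of the liver X receptor list, none was called by edgeR at 7 days. Of these, 8 had negative values and 1 a positive one, with a median log2 fold change of -0.117. Srebf1, a gene of that list, was lower in FEN-HFD livers, at a log2 fold change of -1.0043. It was called under 2 of 15 alternatives, over which its adjusted p lay between 6.65e-05 and 0.355.

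In HFD livers at 20 weeks against 7 days, 12 of 72 tested pathway genes were called by edgeR, 9 higher and 3 lower, against 7.51% of all genes. By DESeq2 there were 15 higher and 4 lower, where it called 12.2% of all genes. By limma-voom there were 10 higher and 3 lower, where it called 9.35%. The median log2 fold change was 0.15 for these genes and -0.01 for all genes. The largest was Agpat9, the table's name for Gpat3, whose product adds the first acyl chain to glycerol-3-phosphate. It averaged 22.4 ± 4.05 CPM at 20 weeks and 3.17 ± 0.923 CPM at 7 days, a log2 fold change of 2.81 (SE 0.22, adjusted p = 0.000405 by edgeR). Chpt1 rose to 344.6 ± 51.6 CPM, against 178.2 ± 32.6 CPM at 7 days (log2 fold change 0.94, SE 0.16, adjusted p = 0.00876). Of the transfer and export genes, Pltp (1.39), Pctp (1.07) and Abcb4 (0.52), the canalicular phosphatidylcholine flippase gene, rose, and Atp8b1 (-0.44) and Tmem30a (-0.55), which encode a phospholipid flippase and its partner subunit, fell. The lipase gene Abhd3 also rose (0.54). Of the liver X receptor list, Scd1 rose (2.30, adjusted p = 0.00213 by edgeR) and the sterol transporter gene Abcg5 fell (-0.48, adjusted p = 0.0477), the second of these calls being lost without any of 6 mice taken singly. Agpat9, Chpt1, Pltp, Pctp, Abcb4, Abhd3 and Tmem30a were called under all 16 alternatives. Crls1 (cardiolipin synthase), Agpat3 and Napepld rose, and Gpcpd1 fell, but these 4 calls and that of Atp8b1 were each lost without at least 4 of the 8 mice taken singly. The Agpat3 call was lost without any 1 of the 8. Of the 16 alternatives, Agpat3 was called under 5, Gpcpd1 and Abcg5 under 7 each, Atp8b1 under 8, Crls1 under 11 and Napepld under 12.

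In FEN-HFD livers at 20 weeks against 7 days, 2 of 71 pathway genes were called by edgeR, against 1.18% of all genes. By DESeq2 there were 1 higher and 1 lower, where it called 2.89% of all genes. By limma-voom there were 4 higher and 1 lower, where it called 6.90%. Agpat9 rose to 15.3 ± 1.59 CPM, against 5.24 ± 1.65 CPM at 7 days (log2 fold change 1.54, SE 0.21, adjusted p = 0.00561 by edgeR). Gpcpd1 fell to 464.5 ± 63.1 CPM, against 929.4 ± 179.4 CPM at 7 days (log2 fold change -1.01, SE 0.16, adjusted p = 0.0119), a call lost without FEN-HFD 20-week mouse 21 (adjusted p = 0.0698) or FEN-HFD 7-day mouse 65 (0.0512), and in 1 fit of all 16 libraries (0.123).

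**Figure D5:**
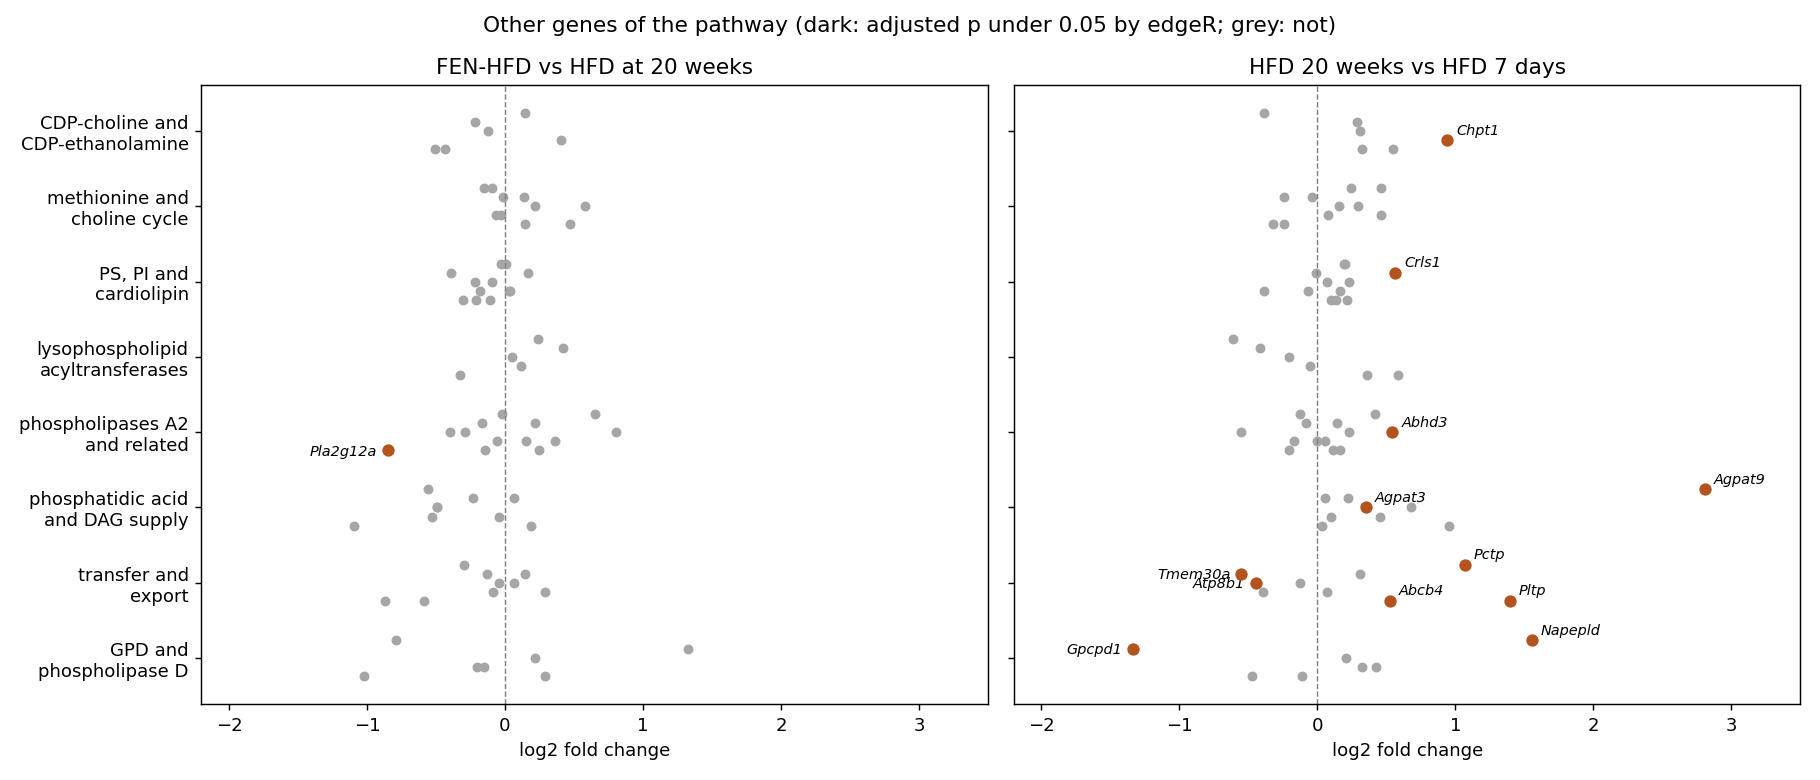
Log2 fold change (x axis) of the other tested genes of the pathway, by list (y axis), in FEN-HFD against HFD livers at 20 weeks (left) and in HFD livers at 20 weeks against 7 days (right). Each point is a gene, dark and named where its adjusted p was under 0.05 by edgeR. PS, PI, DAG and GPD stand for phosphatidylserine, phosphatidylinositol, diacylglycerol and glycerophosphodiester, and 1 gene is named on the left against 12 on the right.

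None of the 73 pathway genes tested for a different fenretinide effect at 20 weeks from 7 days was called by edgeR, where 9 were lower and none higher at an unadjusted p under 0.05, against 8.68% of all genes. DESeq2 called 2 and limma-voom 1, all with a lower effect at 20 weeks, where they called 0.829% and 0.545% of all genes. Agpat9 had a difference of -1.28 (SE 0.31) and Pctp of -0.94 (SE 0.23), each with an adjusted p of 0.174 by edgeR.

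The genes whose log2 CPM followed that of Pemt most closely over the 16 libraries, of 9478 with a mean of at least 5 CPM, were Hyi, Abhd14b and Apoe, each with a Pearson correlation of 0.85. With the group means taken out, the correlations were 0.67 for Hyi, 0.88 for Abhd14b and 0.71 for Apoe. The libraries share groups, depth and cell make-up, and these values are a description.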

How the data were processed

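Liver RNA of 16 mice was sequenced. The authors deposited 1 table of raw read counts per gene, with 23420 rows and a column for each mouse, which was used as it stands. Per the labels and the study's methods, reads were trimmed with FASTQ Toolkit, aligned to mm10 with STAR 2.0 and tested with DESeq2 1.6. The counting program, the annotation and the use of strand are not given in the sources used here. The labels and the methods name different TruSeq kits, so whether the libraries were stranded was not settled. Totals were 19218230 to 32546829 counts. In mouse 29 much of the total was Rn45s (53.1%) and Lars2 (4.36%), with a TMM factor of 0.49, so that its members rest on fewer counts than its total implies (858 for Lpcat3, against 1501 to 3703 in the other libraries).

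Counts were tested with edgeR 4.0.16 in R 4.3.3 (filterByExpr, TMM factors, robust quasi-likelihood test), within the 8 libraries of each comparison or, for the difference of fenretinide effects, in all 16. Adjusted p-values are Benjamini-Hochberg values over all genes tested, called under 0.05, and 95% intervals came from the fit. CPM values were on 1 TMM scale over the 16 libraries, and fold changes came from the fit of each comparison. Levels per kilobase used the exons of the GRCm38 annotation. Some of the fits were also run on simulated counts with known changes, and the outcome is not given here. Alternatives were DESeq2 1.42.0, limma-voom (limma 3.58.1) with sample quality weights, RLE factors, no filter beyond 1 count, at least 10 counts in every library, removal of Rn45s and Lars2, 1 fit of all 16 libraries, each mouse left out, and, chosen after seeing the data, mice 29, 45 and 143 left out together where they occur.

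The members and the gene lists were chosen with earlier results of these data known. All members are named, of the other pathway genes those called and some of the 3 with the smallest p in a list, and the 3 genes most correlated with the member of smallest p between diets. No 2 libraries were identical.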

Additional observations from a re-analysis of the deposited data

Results flagged for a closer look

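Of 40 sets of 4 mice (10 members in 4 groups), 3 held a mouse far from the other 3 by Dixon's test, which flags about 1 in 20 such sets by chance. Mboat1 was at 2.13 CPM in HFD 7-day mouse 143, against 0.0797 to 0.282 CPM in the other mice of the group. Pla2g4a was at 10.6 CPM in the same mouse, against 3.35 to 4.26 CPM in the others. Pla2g4a was also at 6.23 CPM in FEN-HFD 7-day mouse 61, against 4.33 to 4.65 CPM in the others of that group.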

How the results depend on the processing

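Of 493 alternative values for 33 results on the members, 459 kept their direction and their side of the threshold, 5 lost it, 6 gained it and 23 changed sign. Another 431 values were for 26 results on other genes of the pathway lists or of the liver X receptor list. Of these, 357 were kept, 60 lost and 14 gained, and none changed sign. The cause of these changes was not tested. The number of members called between the diets at 20 weeks was 0 by edgeR, 3 by DESeq2 and 1 by limma-voom, and that in HFD livers with time was 1 to 3 when a mouse was left out, with Cept1 the additional one without mouse 143.

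At 20 weeks Pla2g12b was at -0.05, but at 0.023 by limma-voom, 0.010 without mice 29 and 45, and -0.10 to 0.024 when a mouse was left out. At 7 days, leaving out a mouse gave -0.19 to 0.061 for Lpcat3, -0.032 to 0.094 for Pcyt1a, -0.029 to 0.21 for Cept1, -0.33 to 0.39 for Pla2g4a and -0.041 to 0.059 for Pla2g12b, and limma-voom gave 0.18 for Pla2g4a and -0.0084 for Pla2g12b. In HFD livers with time, Pemt was at -0.036 without mice 45 and 143 and at -0.038 to 0.14 with a mouse left out, and Pla2g12b was at 0.0075 in 1 fit of all 16 libraries and at -0.063 to 0.040 with a mouse left out.

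The number of all genes called moved more. Between the diets at 20 weeks it was 242 by edgeR, 1001 by DESeq2, 1089 by limma-voom, 661 in 1 fit of all 16 libraries, 595 without mice 29 and 45, and 36 to 424 with a mouse left out. At 7 days it was 13, 87 by DESeq2, 34 by limma-voom, 20 without the filter and 7 to 18 with a mouse left out. In HFD livers with time it was 996, 1739 by DESeq2 and 468 to 938 with a mouse left out. In FEN-HFD livers with time it was 153, 414 by DESeq2, 894 by limma-voom and 57 to 486 with a mouse left out. For the difference of effects it was 4, 115 by DESeq2, 73 by limma-voom and 0 to 14 with a mouse left out.

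No paired analysis was possible because the groups share no mouse number. With 4 mice a group, no call does not show that a gene was unchanged, and the low counts of Mboat1 and Pla2g4a limit what can be read from them.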
